A study of Homo sapiens with 9 samples.

Results

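Genes of the core spliceosome, the SR proteins and the heterogeneous nuclear ribonucleoproteins (hnRNPs) were followed in HNT34, a human acute myeloid leukemia (AML) cell line with t(3;3) and high expression of the transcription factor EVI1, which is encoded by MECOM. The genes were taken by symbol (SRSF, TRA2, HNRNP, SNRP, SF3A and SF3B, U2AF and PRPF followed by their number or letter). Of 91 symbols with these patterns, 21 were pseudogenes and were left out, so that 70 of the 16612 genes in the table were members. All 70 passed the filter on low counts, as did 16312 genes in all. HNT34 cells carried a lentiviral vector expressing either an shRNA without a target (NT) or the EVI1 shRNA sh#16 or sh#87, were selected with puromycin and were collected 3 days after selection, with 3 polyA RNA libraries in each of the 3 groups. All groups therefore share the vector and the selection, and HNT34 stands for 1 patient's leukemia only. The sh#87 libraries, named here by their titles, carry a different shRNA number in 1 label field. Nothing in the sources says that the libraries came from separate cultures, so p-values measure the spread between these libraries, which may be technical.

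Splicing removes introns from precursor mRNA. The U1 snRNP, a particle of RNA and protein, recognizes the 5′ splice site, U2AF and the U2 snRNP recognize the 3′ splice site and the branch point, and the U4/U6.U5 tri-snRNP then joins to form the catalytic spliceosome. A ring of Sm proteins (SNRPB to SNRPG) holds the RNA of most of these particles. SR proteins and the related TRA2 proteins bind exons and usually favor their inclusion, while hnRNPs coat the transcript and often oppose it. Genes of this machinery, among them SF3B1, SRSF2 and U2AF1, are recurrently mutated in myeloid neoplasms. Many SR and hnRNP genes also carry exons whose inclusion sends the transcript to nonsense-mediated decay, so their mRNA level depends on their own splicing. Counts per gene do not show which isoform was present.

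The libraries held between 17096170 and 43502389 counts. MECOM stood at 571, 504 and 440 CPM (counts relative to library size, with library sizes scaled by edgeR's TMM method) in NT replicates 1 to 3, between 143 and 145 with sh#16 and between 106 and 109 with sh#87. MECOM thus fell to 24.9% of NT with both shRNAs taken as 1 group (adjusted p = 9.18e-07). The NT libraries were less alike than the others. The biological coefficient of variation over all genes was 24.9% in NT, 3.75% in sh#16 and 6.97% in sh#87. Mitochondrially encoded genes took 15.9%, 11.5% and 4.69% of the counts in NT replicates 1, 2 and 3, against 2.69% to 5.97% in the knockdown libraries. Of 8 markers of myeloid leukemia cells in the table, PTPRC, CD34, KIT and SPI1 fell, LYZ rose (by 1.72, adjusted p = 0.00687) and CD33, ANPEP and CEBPA did not pass. Their summed level, mostly PTPRC (a mean of 855 CPM in NT) and CD34 (731 CPM), was 2065 to 2154 CPM in NT, 709 to 714 with sh#16 and 401 to 409 with sh#87. Of 6 markers of other cell types the table held 3 (CD3E, COL1A1 and PECAM1), which summed to 220 to 230, 83.7 to 88.2 and 61.6 to 65.2 CPM. In NT this sum was mostly PECAM1 (a mean of 216 CPM), which was listed as endothelial but is not exclusive to those cells. The sum therefore does not measure the presence of other cell types in this cell line. CD3E and PECAM1 were lower with both shRNAs. COL1A1 was higher, at no more than 0.172 CPM in NT and between 25.9 and 30.3 CPM in the knockdown libraries. Its rise was 7.83 on the log2 scale (adjusted p = 1.07e-08). None of the 3 was at 0 in all libraries. The part of these shifts in the results on the splicing genes was not tested. In bulk RNA, fewer cells of a type and less RNA per cell cannot be told apart.

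Promoter sequence was available for 61 of the 70 members, as 1 or more windows of 300 bases (250 before and 50 after a gene start) from RefSeq on GRCh38.p14. The 4 motifs below were searched on both strands. They were the MYC/MAX E-box CACGTG, the ETS site CCGGAAG, and one motif for each zinc finger domain of EVI1, GACAAGATA and GAAGATGAG. None of the 61 members held either EVI1 motif, which 0.0382% and 0.459% of the 10462 genes of the table with a promoter held. The E-box was held by 8 members (13.1%), near the 12.3% of the genes of the table. Of these 8, 7 were among the 20 hnRNP genes with a promoter (HNRNPA3, HNRNPD, HNRNPDL, HNRNPH2, HNRNPH3, HNRNPM and HNRNPUL1), and the other was SF3B1. The ETS site was held by 21 members (34.4%), against 22.5% of the genes of the table. A match of letters is a description and not a binding site. Members with the ETS site moved in opposite directions, such as SNRPD2 (1.34 on the log2 scale with both shRNAs) and U2AF2 (-1.50). The 8 members with the E-box were all called lower with both shRNAs, from -0.45 (SF3B1) to -1.97 (HNRNPH3). Of the 21 hnRNP members, with or without it, 17 were called lower, and the part of the motif was not tested. SF3B5, which had the largest rise (1.70 on the log2 scale), and SRSF6, which fell by 1.90, are not among the members holding either motif. The windows below were picked from holders with large falls (HNRNPH3, HNRNPD, HNRNPUL1, HNRNPA3, U2AF2) or a large rise (SNRPD2). They are written 5′ to 3′ along the gene, with the E-box or ETS letters in capitals. HNRNPD holds both motifs, HNRNPH3, HNRNPUL1 and HNRNPA3 hold the E-box, and U2AF2 and SNRPD2 hold the ETS site.
HNRNPH3, chr10:68331443-68331742, plus strand: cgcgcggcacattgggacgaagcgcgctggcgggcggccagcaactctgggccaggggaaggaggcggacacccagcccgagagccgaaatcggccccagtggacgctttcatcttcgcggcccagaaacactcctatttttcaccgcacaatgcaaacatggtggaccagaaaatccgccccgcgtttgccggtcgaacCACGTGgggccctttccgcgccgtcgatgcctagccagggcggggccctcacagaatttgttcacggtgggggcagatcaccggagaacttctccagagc
HNRNPD, chr4:82373942-82374241, minus strand: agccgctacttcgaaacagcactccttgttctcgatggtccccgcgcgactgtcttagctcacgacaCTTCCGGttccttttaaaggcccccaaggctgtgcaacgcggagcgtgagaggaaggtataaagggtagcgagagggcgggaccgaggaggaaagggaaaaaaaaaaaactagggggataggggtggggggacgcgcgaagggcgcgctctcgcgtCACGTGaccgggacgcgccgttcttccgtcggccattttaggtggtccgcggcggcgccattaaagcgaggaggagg
HNRNPUL1, chr19:41262307-41262606, plus strand: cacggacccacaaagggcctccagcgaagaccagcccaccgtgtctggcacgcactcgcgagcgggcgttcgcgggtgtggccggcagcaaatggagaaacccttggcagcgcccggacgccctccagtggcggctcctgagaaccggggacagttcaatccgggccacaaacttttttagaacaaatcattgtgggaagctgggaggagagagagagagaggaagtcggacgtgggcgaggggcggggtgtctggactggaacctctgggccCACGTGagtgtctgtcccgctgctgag
HNRNPA3, chr2:177212544-177212843, plus strand: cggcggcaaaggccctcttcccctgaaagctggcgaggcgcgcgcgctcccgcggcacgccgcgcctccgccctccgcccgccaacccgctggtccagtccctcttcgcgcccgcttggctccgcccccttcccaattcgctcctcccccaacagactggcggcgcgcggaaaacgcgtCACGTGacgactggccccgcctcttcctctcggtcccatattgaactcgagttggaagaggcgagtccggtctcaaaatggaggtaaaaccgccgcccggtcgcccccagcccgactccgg
U2AF2, chr19:55654785-55655084, plus strand: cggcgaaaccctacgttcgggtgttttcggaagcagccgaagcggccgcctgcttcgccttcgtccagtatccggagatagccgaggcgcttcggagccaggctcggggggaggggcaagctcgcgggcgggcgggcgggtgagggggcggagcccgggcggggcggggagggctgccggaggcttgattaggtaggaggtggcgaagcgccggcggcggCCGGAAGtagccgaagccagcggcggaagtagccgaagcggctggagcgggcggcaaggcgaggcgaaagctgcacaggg
SNRPD2, chr19:45692267-45692566, minus strand: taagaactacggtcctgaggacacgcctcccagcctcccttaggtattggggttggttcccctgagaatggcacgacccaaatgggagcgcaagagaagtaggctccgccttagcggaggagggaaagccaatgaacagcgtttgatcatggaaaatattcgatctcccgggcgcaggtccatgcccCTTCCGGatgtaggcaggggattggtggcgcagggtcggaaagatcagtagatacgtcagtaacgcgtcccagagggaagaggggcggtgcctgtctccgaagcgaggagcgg
HNRNPH3, HNRNPUL1 and SNRPD2 have 3 windows each in this set, and the one with the motif is printed. The E-box starts 50 bases before the gene start in HNRNPH3, 27 before it in HNRNPD and 71 before it in HNRNPA3, whereas in HNRNPUL1 it starts 23 bases after it.

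The question put to the data was how the mRNA of the splicing machinery stood after EVI1 knockdown. With both shRNAs, 39 of the 70 members fell and 7 rose at an adjusted p of at most 0.01 (edgeR's quasi-likelihood test with Benjamini-Hochberg adjustment over all genes tested, as for every adjusted p that follows). The same rule called 29.7% of all genes lower and 30.1% higher, so 55.7% of the members against 29.7% of all genes were lower and 7 of 70 members against 30.1% were higher. The median log2 fold change was -0.54 over the members and 0.05 over all genes. Summed, as a share of the unscaled counts, the members held 1.68% to 1.89% of an NT library, 1.40% to 1.42% of an sh#16 library and 1.22% to 1.26% of an sh#87 library. All 6 knockdown libraries lay below all 3 NT libraries for 42 members (against 32.1% of all genes) and above them for 9 members (12.9%, against 33.9%). The changes were mostly moderate. At a log2 fold change of at least 1, 19 members fell (27.1%, against 17.1% of all genes) and 2 rose (2.86%, against 21.0%). At the threshold for differentially expressed genes of the study, a log2 fold change of at least 2, 0 members passed with both shRNAs although 15.4% of all genes did. DESeq2 and limma-voom also called 0, and 0 members reached that fold at an unadjusted p under 0.05. At that threshold 1 member passed after a correction for transcript length and GC content, 1 without sh#16 replicate 3 and 2 without NT replicate 3.

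**Figure D1:**
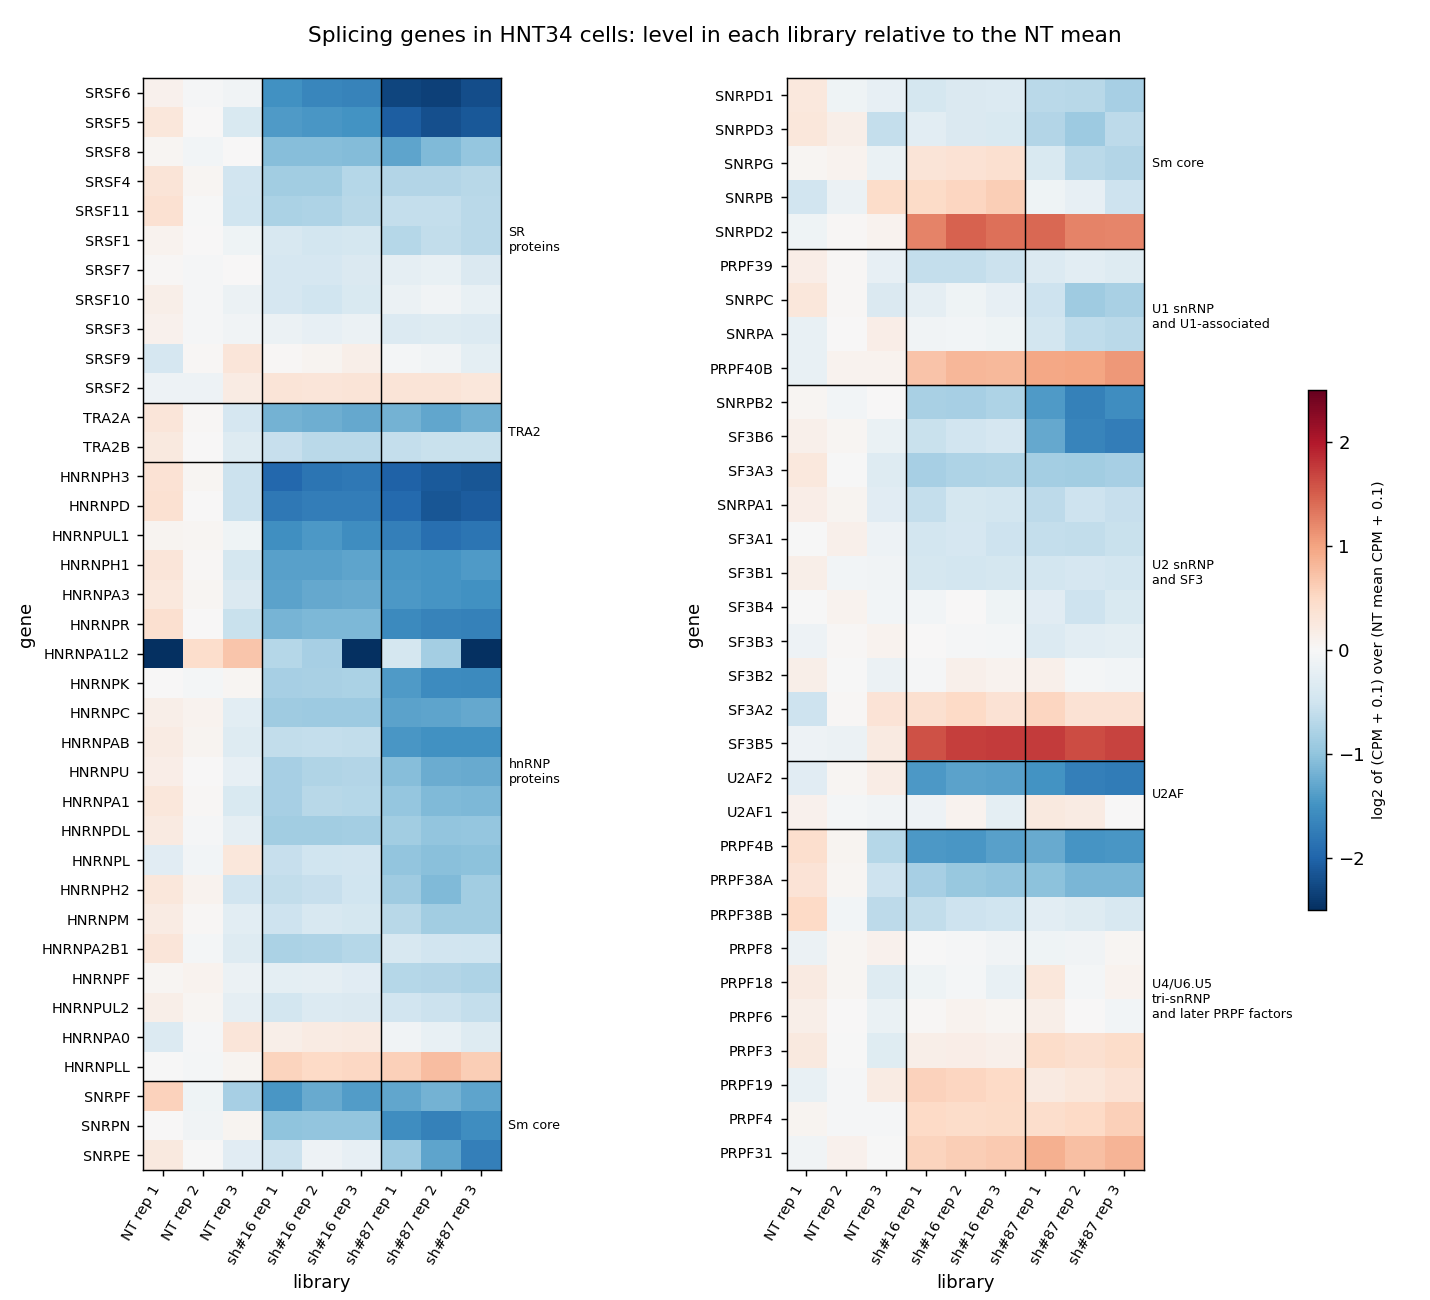
Level of 69 of the 70 members (rows, grouped by role and ordered by change) in each of the 9 libraries (columns), as the log2 ratio of CPM to the mean CPM of the 3 NT libraries with 0.1 added to both (blue lower, red higher, colors saturate at 2.5). Blue fills most hnRNP rows in all 6 knockdown libraries, while SF3B5 and SNRPD2 are red in all 6, and HNRNPA1L2 is dark blue in the 3 libraries where it has 0 counts.

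The size of the shift depended on the NT library it was read against. Set against NT replicate 1 alone, the mean of the knockdown libraries had a median log2 ratio of -0.81 over the members, against replicate 2 of -0.61, and against replicate 3 of -0.33. The direction was shared, since 55, 55 and 53 members were lower than in replicates 1, 2 and 3. Over all genes the median log2 ratio was 0.08, 0.03 and 0.02 in the same order. The counts all use the same knockdown mean, so they are not separate results. Of the 69 members with counts in all NT libraries, 47 (68.1%) were highest in NT replicate 1 and 48 (69.6%) were lowest in NT replicate 3, against 40.1% and 41.6% of all genes. Replicate 1 also had the highest and replicate 3 the lowest mitochondrial share of the 3, and the part of that share in the members' levels was not tested. Removal of the mitochondrially encoded genes before scaling left the median at -0.54.

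Most hnRNP proteins fell. Of the 21 members of this class, the largest, 17 fell, 1 rose and 3 did not pass, against 29.7% of all genes lower and 30.1% higher. The class had a median log2 fold change of -0.96. Without NT replicate 1, 13 fell, and without NT replicate 2, 12 fell. Their summed level was 12179 ± 2082 CPM in NT, 6756 ± 168 with sh#16 and 5608 ± 244 with sh#87 (SD, n = 3 each). HNRNPA1, which binds exonic and intronic silencers and was the most abundant member per length at 771 ± 170 CPM per kilobase of its canonical transcript in NT (SD, n = 3), stood at 3501, 2927 and 2229 CPM in the NT libraries. It stood at 1617, 1774 and 1755 CPM with sh#16 and at 1486, 1338 and 1320 CPM with sh#87, so the groups did not overlap. HNRNPA1 fell by 0.90 ± 0.16 on the log2 scale (SE, adjusted p = 5.26e-04). Near-identical copies are listed apart in the table. Those of HNRNPA1 amounted to 3.76% of its counts, and the member HNRNPA1L2 had 0 counts in 3 libraries and at most 6.24 CPM elsewhere, so its value is uncertain. HNRNPH1, which binds G-rich elements, and HNRNPA2B1, a relative of HNRNPA1, followed HNRNPA1 per length in NT at 397 ± 99.0 and 351 ± 78.0 CPM per kilobase. Their order was not tested.

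The deepest fall of any member was that of HNRNPH3, a relative of HNRNPH1. HNRNPH3 stood at 277, 223 and 148 CPM in the NT libraries, at 55.5, 61.0 and 62.1 CPM with sh#16 and at 53.1, 50.2 and 49.1 CPM with sh#87. The lowest NT library was thus above every knockdown library by a wide margin, although NT itself spread widely. HNRNPH3 fell by 1.97 ± 0.16 on the log2 scale, to 25.5% of NT (adjusted p = 2.78e-06). HNRNPD, also known as AUF1, which binds AU-rich elements and influences mRNA stability, stood at 672, 515 and 356 CPM in NT, at 148, 156 and 155 CPM with sh#16 and at 134, 116 and 121 CPM with sh#87. It fell by 1.89 ± 0.17 (adjusted p = 5.78e-06). HNRNPUL1, a relative of the scaffold protein HNRNPU, was steadier in NT, at 568, 554 and 497 CPM, and stood at 186, 198 and 184 CPM with sh#16 and 165, 146 and 152 CPM with sh#87. Its fall was 1.65 ± 0.11 on the log2 scale (adjusted p = 6.93e-07). HNRNPH1 (-1.40), HNRNPA3 (-1.38), HNRNPR (-1.38), HNRNPK (-1.13) and HNRNPC (-1.10) also fell by more than 1 on the log2 scale, and HNRNPAB (-0.99) and HNRNPU (-0.96) fell nearly as far. HNRNPA2B1 fell by 0.60 (adjusted p = 0.00452). After the correction for transcript length and GC content its value was -0.19 (adjusted p = 0.266). HNRNPA2B1 also lost its call without NT replicate 1 or 2 or any 1 sh#16 library (adjusted p from 0.0106 to 0.0233), and HNRNPAB lost it without NT replicate 1 or 2 or sh#87 replicate 1 (adjusted p from 0.0108 to 0.0232).

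HNRNPLL, a regulator of CD45 splicing in lymphocytes, went the other way. It stood at 37.7, 36.6 and 40.0 CPM in NT, at 56.3, 54.1 and 54.4 CPM with sh#16 and at 57.8, 65.0 and 58.5 CPM with sh#87, a rise of 0.60 ± 0.09 on the log2 scale (adjusted p = 1.39e-04) and of 0.97 after that correction. Its closest relative HNRNPL fell by 0.75 ± 0.17 (adjusted p = 0.00259), from 179, 207 and 265 CPM in NT to 146 to 155 CPM with sh#16 and 105 to 109 CPM with sh#87. Without NT replicate 3 the adjusted p of HNRNPL was 0.0118. HNRNPA0, HNRNPA1L2 and HNRNPF did not pass with both shRNAs. HNRNPF, at -0.48 (adjusted p = 0.0155), passed as lower with DESeq2 (adjusted p = 0.00453). It fell by 0.74 with sh#87 alone (adjusted p = 1.24e-05) and was at -0.25 with sh#16 alone (adjusted p = 0.0103).

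SR proteins were divided. Of 11, 7 fell, none rose and 4 did not pass, against 29.7% of all genes lower and 30.1% higher. The class had a median log2 fold change of -0.54. After the correction for transcript length and GC content, which was chosen after seeing the data, 4 fell, SRSF2 rose and the median was -0.18. The 3 falls that lost their call under it were those of SRSF1 (-0.18, adjusted p = 0.0492), SRSF7 (0.00, adjusted p = 0.975) and SRSF11 (-0.30, adjusted p = 0.0503). SRSF6 and SRSF5, which can promote inclusion of the exons they bind, led the class. SRSF6 stood at 207, 189 and 181 CPM in NT, at 67.3, 62.4 and 60.7 CPM with sh#16 and at 39.1, 38.4 and 41.2 CPM with sh#87. The 3 groups were fully separated from one another, and SRSF6 fell by 1.90 ± 0.19 on the log2 scale with both shRNAs (adjusted p = 1.01e-05). SRSF5 stood at 455, 379 and 287 CPM in NT, at 140, 136 and 133 CPM with sh#16 and at 89.0, 81.8 and 86.3 CPM with sh#87, and fell by 1.75 ± 0.21 (adjusted p = 3.56e-05). SRSF8, a retrogene-derived SR protein of low abundance, fell by 1.10 ± 0.09, from between 36.8 and 39.7 CPM to between 15.3 and 19.6 CPM (adjusted p = 3.43e-06). SRSF1, the founding SR protein and a regulator of both splice site choice and translation, stood at 616, 584 and 538 CPM in NT, at 439, 424 and 429 CPM with sh#16 and at 352, 378 and 362 CPM with sh#87. Its fall was smaller, at 0.54 ± 0.10 (adjusted p = 7.29e-04). SRSF4, SRSF7 and SRSF11 fell by between 0.32 and 0.76, and the call of SRSF7 was also lost without NT replicate 1 or 2 or sh#87 replicate 3 (adjusted p from 0.0101 to 0.0130).

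SRSF2, recurrently mutated in myelodysplastic syndromes, did not share this direction. It stood at 200, 200 and 253 CPM in NT and between 266 and 274 CPM in all 6 knockdown libraries, a log2 fold change of 0.32 ± 0.09 that missed the threshold narrowly (adjusted p = 0.0104). It passed with DESeq2 (adjusted p = 8.30e-04), limma-voom (adjusted p = 0.00676) and without NT replicate 3 (adjusted p = 5.95e-04). SRSF3 had a log2 fold change of -0.25 ± 0.09 with both shRNAs (adjusted p = 0.0241), and after the correction for transcript length and GC content it was 0.11. SRSF9 and SRSF10 did not pass either, with -0.02 and -0.28. The TRA2 proteins, which bind purine-rich exonic enhancers, both fell. TRA2A stood at 137, 114 and 83.0 CPM in NT and between 45.3 and 49.2 CPM in the knockdown libraries, a fall of 1.23 ± 0.13 (adjusted p = 1.30e-05). TRA2B, at 493, 415 and 333 CPM in NT and between 259 and 281 CPM after knockdown, fell by 0.61 ± 0.11 (adjusted p = 6.58e-04), but after the correction for transcript length and GC content it was at -0.27 and did not pass (adjusted p = 0.0189).

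**Figure D2:**
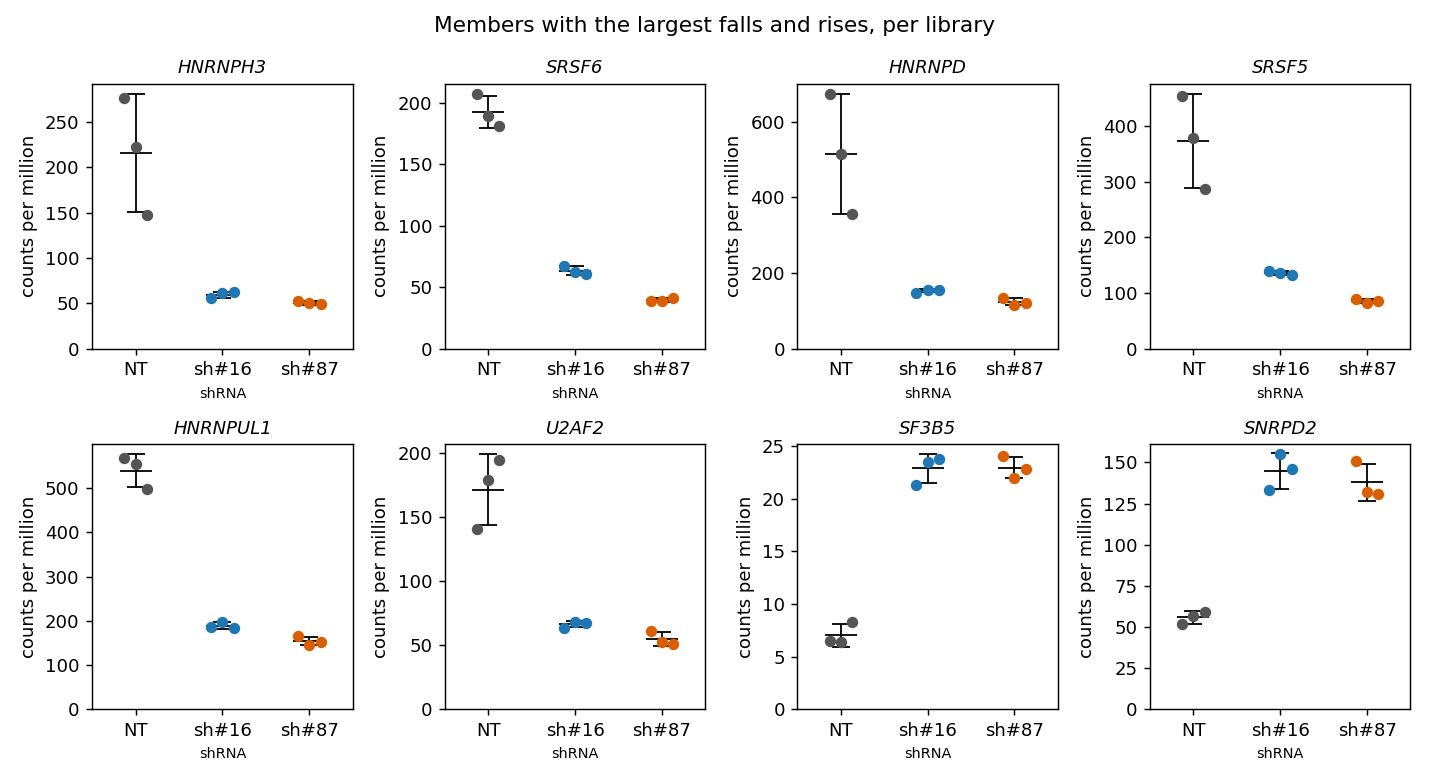
CPM of the 6 members with the largest falls and the 2 with the largest rises (panels) in NT, sh#16 and sh#87 libraries (points, 3 per group, with bars for mean ± SD, axes from 0). In every panel the knockdown points lie apart from the NT points, as for SRSF6 at 38.4 to 67.3 against 181 to 207 CPM and SNRPD2 at 131 to 155 against 51.7 to 59.3 CPM.

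With both shRNAs taken as 1 group, the Sm core did not move as a unit. Of its 8 members, SNRPF, SNRPN and SNRPD1 fell, SNRPD2 rose and 4 did not pass, against 29.7% of all genes lower and 30.1% higher. With sh#87 alone 6 of the 8 fell and SNRPD2 rose (median log2 fold change -0.74). With sh#16 alone SNRPF and SNRPN fell and SNRPD2 rose (median -0.30). SNRPD2, a subunit of the ring on every Sm-class snRNA, stood at 51.7, 56.8 and 59.3 CPM in NT, at 133, 155 and 146 CPM with sh#16 and at 151, 132 and 131 CPM with sh#87. It rose 2.52-fold, or by 1.34 ± 0.09 on the log2 scale (adjusted p = 9.88e-07). Its partner in the ring SNRPD1 fell by 0.54 ± 0.14 (adjusted p = 0.00499), from between 70.7 and 97.8 CPM to between 45.9 and 64.5 CPM. The call of SNRPD1 was lost without NT replicate 1 or 2 or sh#87 replicate 1 or 2 (adjusted p from 0.0113 to 0.0246), and after the correction for transcript length and GC content its value was -0.20 (adjusted p = 0.0957). SNRPF stood at 57.5, 35.7 and 21.6 CPM in NT and between 14 and 16.8 CPM after knockdown, a fall of 1.32 ± 0.23 (adjusted p = 4.34e-04). SNRPN, the paralog of SNRPB expressed from the imprinted Prader-Willi region, stood at 82.2, 77.1 and 84.8 CPM in NT, at 40.5, 40.8 and 41.0 CPM with sh#16 and at 27.7, 25.1 and 27.6 CPM with sh#87. It fell by 1.27 ± 0.17 (adjusted p = 8.42e-05), while SNRPB had a log2 fold change of 0.19 ± 0.28 (adjusted p = 0.558). SNRPN shares exons with SNURF, and counting could split their reads.

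In the U1 class, PRPF40B, which is thought to link the U1 snRNP to the branch point, rose. PRPF40B, the lowest member per length in NT at 2.21 CPM per kilobase, stood at 6.15, 7.46 and 7.47 CPM in NT, at 11.6, 12.5 and 12.4 CPM with sh#16 and at 13.8, 14.1 and 15.1 CPM with sh#87, a rise of 0.91 ± 0.13 (adjusted p = 1.11e-04). PRPF39 fell by 0.44 (adjusted p = 0.00511), a call lost without NT replicate 1 or 2 or any 1 sh#16 library (adjusted p from 0.0116 to 0.0246). SNRPA and SNRPC, which encode U1-specific proteins, did not pass with both shRNAs or with sh#16 alone. With sh#87 alone SNRPA fell by 0.58 (adjusted p = 4.68e-04) and SNRPC by 0.73 (adjusted p = 0.00237). After the correction for transcript length and GC content PRPF40B was at 0.48 (adjusted p = 0.00268), PRPF39 at 0.00 (adjusted p = 0.993) and SNRPA at -0.70, which passed (adjusted p = 8.79e-04).

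The U2 class held the largest rise of all members. SF3B5, the smallest subunit of the SF3b complex, stood at 6.45, 6.37 and 8.27 CPM in NT, at 21.3, 23.5 and 23.8 CPM with sh#16 and at 24.0, 22.0 and 22.8 CPM with sh#87. It rose 3.25-fold, or by 1.70 ± 0.12 on the log2 scale (adjusted p = 8.87e-07), and none of the other 5 SF3B members passed as higher. SF3B1, the large subunit that contacts the branch point, stood at 648, 559 and 548 CPM in NT and between 423 and 439 CPM in the knockdown libraries, a fall of 0.45 ± 0.08 (adjusted p = 6.91e-04). After the correction for transcript length and GC content SF3B1 was at -0.15 and did not pass (adjusted p = 0.0592). SNRPB2, the U2B″ protein, fell by 1.13 ± 0.21 (adjusted p = 6.51e-04), and SF3A3, SNRPA1 and SF3A1 fell by between 0.52 and 0.82. SF3B2, SF3B3, SF3B4, SF3B6 and SF3A2 did not pass. SF3B6, at -0.92 with both shRNAs (adjusted p = 0.0156), passed as lower with DESeq2 (adjusted p = 0.00348), without sh#16 replicate 3 (adjusted p = 0.00896), with sh#16 alone (-0.49, adjusted p = 0.0061) and with sh#87 alone (-1.54, adjusted p = 4.42e-06). SF3B4 was at -0.46 after the correction for transcript length and GC content (adjusted p = 0.00517). In all, 1 of the 11 members rose, 5 fell and 5 did not pass, against 30.1% of all genes higher and 29.7% lower.

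U2AF is a heterodimer whose large subunit U2AF2 binds the polypyrimidine tract and whose small subunit U2AF1 binds the AG at the 3′ splice site. U2AF2 stood at 141, 179 and 195 CPM in NT, at 63.9, 68.3 and 67.2 CPM with sh#16 and at 61.0, 52.4 and 51.3 CPM with sh#87, a fall of 1.5 ± 0.13 (adjusted p = 3.27e-06). U2AF1 stood at 109, 97.0 and 95.6 CPM in NT and between 85.2 and 120 CPM after knockdown, so the groups overlapped, with a log2 fold change of 0.04 ± 0.12 (adjusted p = 0.750). The near-identical copy U2AF1L5 held 22.6% as many counts as U2AF1, and with both summed the log2 fold change was -0.30 (adjusted p = 0.0259).

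Among the 10 tri-snRNP and later PRPF factors 3 rose, 2 fell and 5 did not pass, against 30.1% of all genes higher and 29.7% lower. The class thus stood near the first share and below the second. After the correction for transcript length and GC content 1 rose and 3 fell. PRPF31, which joins U4/U6 to U5, stood at 55.9, 64.3 and 58.9 CPM in NT, at 88.3, 91.8 and 94.2 CPM with sh#16 and at 110, 100 and 108 CPM with sh#87, a rise of 0.73 ± 0.10 (adjusted p = 8.47e-05). After that correction PRPF31 was at 0.28 (adjusted p = 0.0481) and PRPF19 at 0.16 (adjusted p = 0.137). PRPF4, a U4/U6 protein, and PRPF19, the ubiquitin ligase of the activation complex, rose by 0.50 and 0.42. The call of PRPF19 was lost without NT replicate 1 or 2 or any 1 sh#16 library (adjusted p from 0.0143 to 0.0378). PRPF8, the U5 protein at the catalytic center, stood at 482, 550 and 573 CPM in NT and between 496 and 551 CPM in the knockdown libraries, with a log2 fold change of -0.04 ± 0.09 (adjusted p = 0.668). After upper-quartile normalization the value of PRPF8 was 0.07, and after the correction for transcript length and GC content it was -0.27 (adjusted p = 0.00569). PRPF4B, a kinase needed for activation, fell by 1.40 ± 0.18 (adjusted p = 6.58e-05), from 435, 343 and 200 CPM to between 117 and 137 CPM. PRPF38A fell by 1.01 (adjusted p = 2.01e-04), and by 0.65 after the correction.

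**Figure D3:**
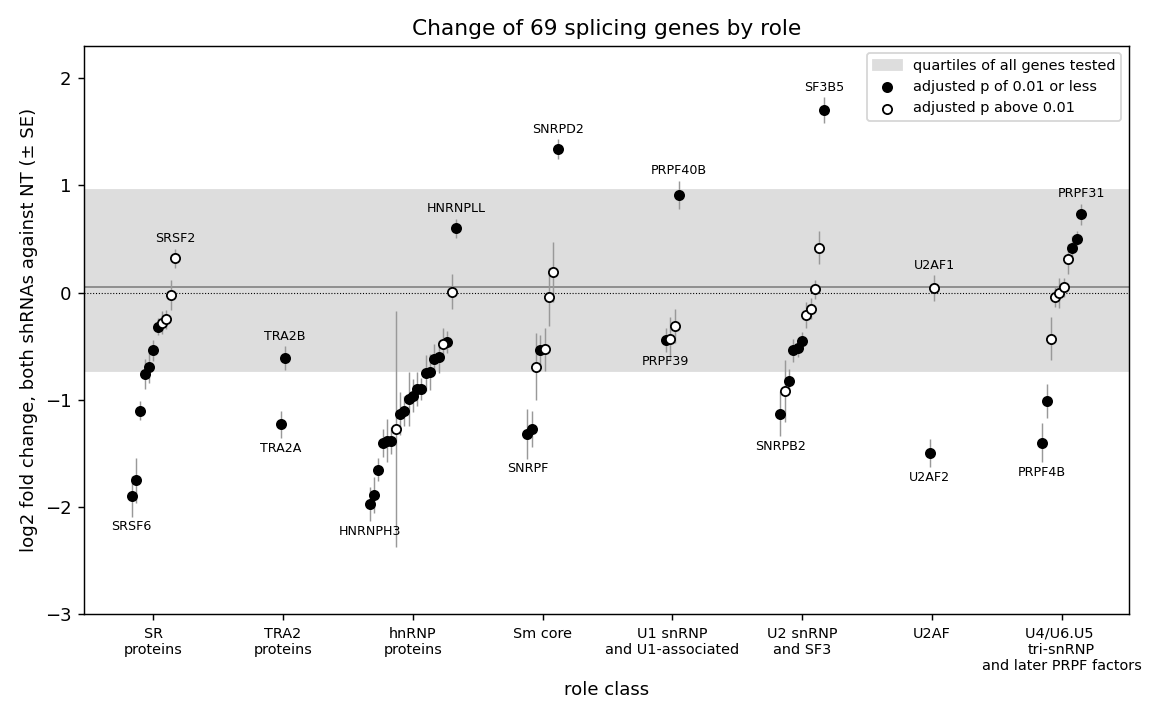
Log2 fold change of 69 of the 70 members with both shRNAs against NT (points, ± SE) by role, filled where the adjusted p is 0.01 or less, over the middle 50% of all genes tested (grey band, -0.73 to 0.96) and their median (grey line, 0.05). The hnRNP points lie mostly below the band's center down to -1.97, while the tri-snRNP points spread on both sides of 0.

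With sh#16 alone 7 members rose and 39 fell, against 29.8% and 30.2% of all genes. With sh#87 alone 7 members rose and 47 fell, against 34.3% and 33.6% of all genes. The median log2 fold change of the members was -0.48 with sh#16 and -0.69 with sh#87. Both comparisons use the same NT libraries. At the threshold for differentially expressed genes, 0 members passed with sh#16 (12.8% of all genes did) and 4 passed with sh#87 (5.71%, against 18.9%). These 4 all fell, namely SRSF6 (-2.28), SRSF5 (-2.12), HNRNPH3 (-2.09) and HNRNPD (-2.05). Their number rests on the NT libraries and the scaling, since 1 member passed without NT replicate 1 and 2 passed after upper-quartile normalization or the correction for transcript length and GC content. With sh#16, 1 member passed without NT replicate 3.

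The direct comparison of sh#87 with sh#16 called 12 members lower (17.1%, against 9.42% of all genes) and 0 higher (8.29% of all genes). At an adjusted p of at most 0.05 it called 22 lower and 2 higher, and at 0.01 DESeq2 called 18 lower and 0 higher and limma-voom 13 lower and 0 higher. At an unadjusted p under 0.05, 28 members were lower and 7 higher. SF3B6, the SF3b subunit at the branch point adenosine, stood at 96.9, 102 and 107 CPM with sh#16 and at 59.2, 45.3 and 43.2 CPM with sh#87, a difference of -1.05 ± 0.13 on the log2 scale (adjusted p = 5.59e-04). SNRPG, a member of the Sm ring, stood at 54.3, 55.9 and 56.9 CPM with sh#16 and at 33.1, 27.1 and 26.1 CPM with sh#87, on either side of the 38.8 to 46.3 CPM in NT. It fell by 0.59 with sh#87 against NT (adjusted p = 7.29e-04), its log2 fold change with sh#16 was 0.36 (adjusted p = 0.0120), and the difference between the shRNAs was -0.95 (adjusted p = 3.99e-04). HNRNPK, a C-rich RNA binding protein, stood at 673, 645 and 690 CPM in NT, at 374, 380 and 384 CPM with sh#16 and at 252, 225 and 223 CPM with sh#87. The difference between the shRNAs was -0.70 ± 0.07 (adjusted p = 2.23e-04). SNRPE, HNRNPAB, SNRPB2, SRSF6, SRSF5, SNRPN, SNRPA, HNRNPF and SF3B4 were lower by between 0.34 (SF3B4) and 1.0 (SNRPE). Calls of SRSF5 and SF3B4 were lost without any 1 library other than NT replicates 1 and 3 (adjusted p from 0.0112 to 0.0418), as were those of SNRPE and SNRPA, which however passed without sh#87 replicate 1 (adjusted p from 0.0114 to 0.0328 where lost). SNRPE pseudogenes held 17.3% and SNRPG pseudogenes 6.57% as many counts as their genes, and the copies are near-identical, so the levels of both genes are uncertain. MECOM itself was lower with sh#87 than with sh#16 by 0.43 (adjusted p = 0.00661), and MYC, whose product binds E-boxes, by 1.36 (adjusted p = 2.35e-04). None of the 12 members was among the 8 that held an E-box in a promoter window, and 9 of the 70 members had no window. The E-box was held by 13.1% of the members with a window and 12.3% of the genes of the table. At such shares 12 members are too few to read anything from its absence. The part of MECOM or MYC in these differences was not tested. The comparison borrowed its spread from all 3 groups, and without NT replicate 1 it called 23 members lower and 2 higher, without NT replicate 3 it called 26 lower and 3 higher, and with a weight per group of libraries it called 31 lower and 5 higher. The share of all genes called is given here for the main fit only. The counts under other settings and thresholds thus show how the calls depend on the setting, and are no result about the members.

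**Figure D4:**
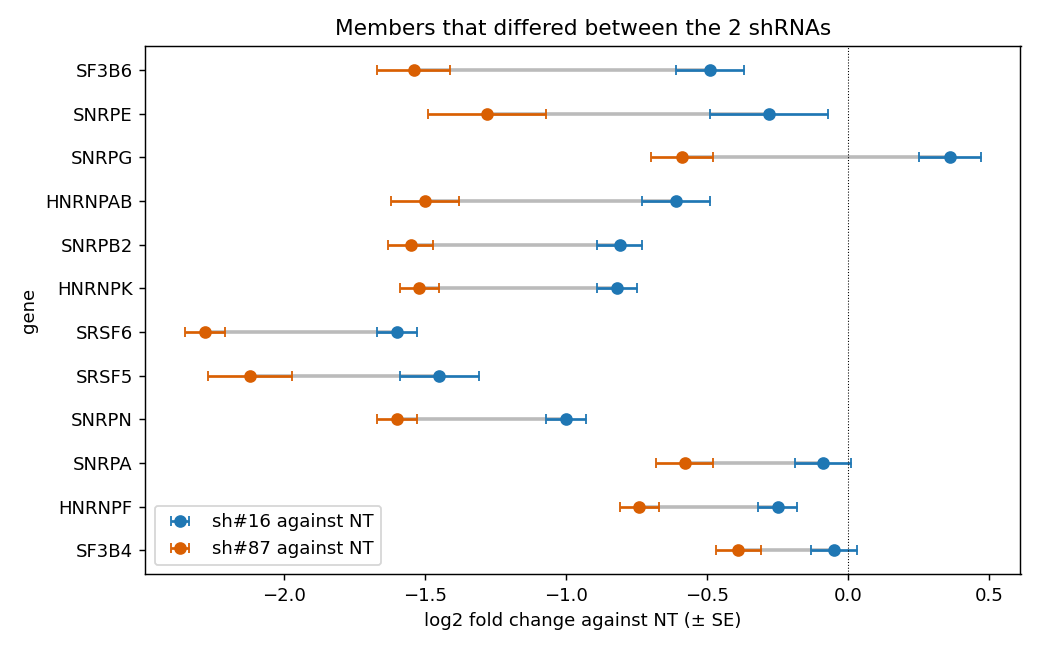
Log2 fold change against NT (horizontal axis, ± SE) with sh#16 (blue) and sh#87 (orange) for the 12 members that passed in the direct comparison of the shRNAs. Every orange point lies left of its blue point, by 1.05 for SF3B6 down to 0.34 for SF3B4, and only SNRPG has its points on both sides of 0.

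The members differed in base composition along with their change. The 20 members with a log2 fold change of -1 or less, HNRNPA1L2 included, had a median GC content of 41.3% over the canonical transcript, and the 15 members above 0 one of 54.9%. Over the 70 members the rank correlation of GC content with the change was 0.39, and over 13854 genes it was 0.28. That with transcript length was -0.16 over the members and -0.08 over the genes. These are descriptions across genes of the same 9 libraries. HNRNPUL1 and U2AF2 fell although their transcripts are rich in GC, and HNRNPLL rose although its transcript is not. After each library's trend on length and GC content was removed, a step chosen after seeing the data, 35 members fell and 6 rose with both shRNAs, the median was -0.47, and 12 instead of 19 fell by at least 1 on the log2 scale.

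**Figure D5:**
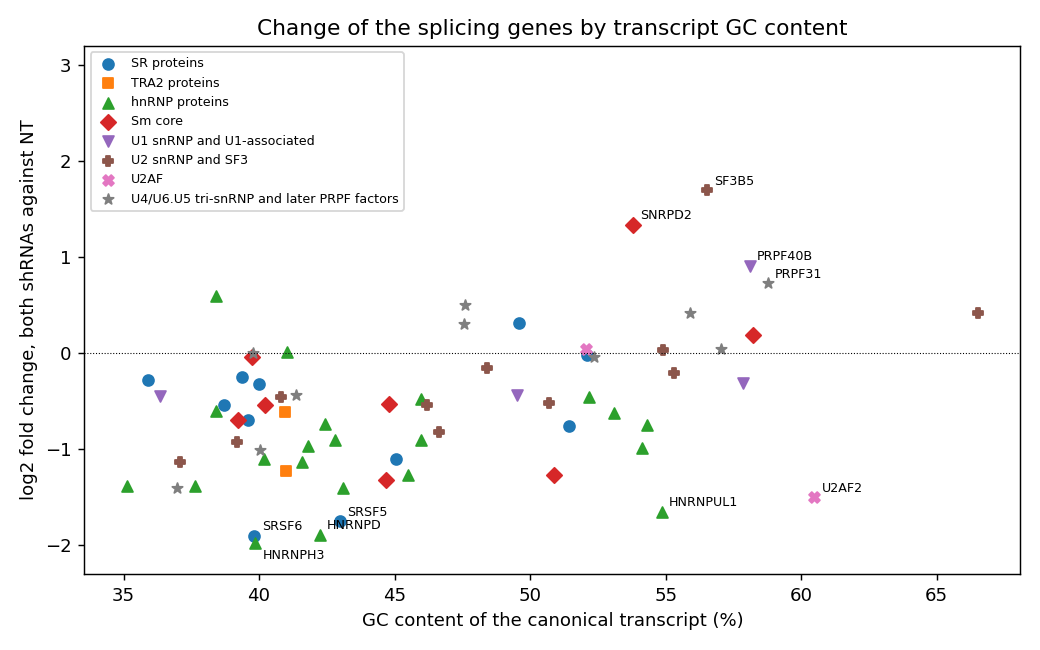
Log2 fold change with both shRNAs against NT (vertical axis) by GC content of the canonical transcript in percent (horizontal axis) for 69 of the 70 members, with a symbol for each role. The points rise from left to right (the rank correlation over the 70 is 0.39), with HNRNPUL1 (-1.65) and U2AF2 (-1.5) low on the right.

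Other genes of the pathway were taken from lists written with results of these data known, and their counts stand beside the 29.7% of all genes called lower and the 30.1% called higher. The list of SR protein kinases and phosphatases, which set the phosphorylation and location of SR proteins, had 8 of 12 lower and 1 higher with both shRNAs. It also holds PPIG (-1.58) and TNPO3 (-0.70), which are neither kinases nor phosphatases and are both among the 8. CLK4, a kinase of the nuclear speckles, fell the furthest at 1.60 (adjusted p = 5.07e-07), and PPP1CA, a phosphatase subunit, rose by 0.57 (adjusted p = 0.00264). Of 29 other splicing regulators 19 fell and 1 rose. MBNL3, a muscleblind protein, fell from between 64.8 and 79.6 CPM in NT to between 5.76 and 9.11 CPM, or by 3.35 on the log2 scale (adjusted p = 5.61e-08), and RBFOX2 rose by 0.57 (adjusted p = 1.38e-04). Of 58 other components of the spliceosome 27 fell and 4 rose, from CWC22 at -2.07 (adjusted p = 1.74e-05) to the helicase DHX16 at 1.75 (adjusted p = 2.38e-06). Nonsense-mediated decay factors, with 9 of 15 lower and 2 higher, ran from SMG9 at -1.64 (adjusted p = 3.95e-07) to EIF4A3 of the exon junction complex at 0.91 (adjusted p = 1.18e-05). The machinery that assembles snRNPs had 5 of 16 lower, a share near that of all genes, and 1 higher, with the Cajal body protein COIL at -1.99 (adjusted p = 1.39e-05) and GEMIN7 at 0.47 (adjusted p = 0.00675). The medians of these lists were -0.62, -0.71, -0.34, -0.77 and -0.13, against 0.05 over all genes.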

How the data were processed

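RNA-seq of 9 HNT34 libraries was analysed, grouped by the sample titles. As deposited by the authors, 1 table holds estimated counts for each gene symbol, without normalization and with whole numbers only. Per the methods and labels, reads were checked with FastQC 1.3 and aligned with STAR to GRCh38 with ENSEMBL annotation, whereas the file header names salmon output. How pseudogene reads were assigned is not given in the sources used here. The header stands 1 cell to the left of the values, and the 9 sample names were therefore assigned to the 9 columns of values in their order.

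The deposited counts were tested in R 4.3.3 with edgeR 4.0.16 (TMM, filterByExpr, quasi-likelihood test, Benjamini-Hochberg adjustment over 16312 genes). A gene was called where the adjusted p did not exceed 0.01, and counted as differentially expressed where its log2 fold change was in addition 2 or more in size. Both shRNAs against NT used a fit of 2 groups, and single shRNAs a fit of 3 groups. In the fit of 2 groups a difference between sh#16 and sh#87 counts as spread between libraries. A member that fell to unlike depths with the shRNAs can thus miss the threshold there. The SE of SF3B6, for example, was 0.29 with both shRNAs, 0.12 with sh#16 and 0.13 with sh#87. The members, role classes and gene lists were chosen with earlier results of these data known. Members named are those past a log2 fold change of 1 in any comparison, the highest and lowest of each role class, and SRSF1, SRSF2, SRSF3, TRA2A, TRA2B, HNRNPA1, HNRNPA2B1, HNRNPK, SF3B1, U2AF1, PRPF8 and SNRPN. Other members with values, such as SNRPG, were named after their values were seen. Of other lists the highest and lowest members are named, with MECOM and MYC for reference.

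Alternatives were RLE and upper-quartile normalization, DESeq2 1.42.0, limma-voom (limma 3.58.1) without and with a weight per group, no filter, a mean of at least 10 counts, an adjusted p of at most 0.05, a replicate block, removal of mitochondrially encoded genes, and each library left out. The sum of copies with their parent genes and the correction for transcript length and GC content (loess, span 0.5, on 84.4% of genes and all 70 members) were added after the data had been seen. Transcript length and GC content came from GENCODE transcripts of GRCh37 and promoters from RefSeq on GRCh38.p14. No coordinates were converted between builds. Libraries of the same replicate number did not deviate together (correlations from -0.137 to 0.0826). The pipeline was tested on simulated data. Every member but HNRNPA1L2 had counts in all 9 libraries. The values of 1 member and of 1 marker of other cell types are not reported here, and figures omit that member. Figures used Python with matplotlib.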

Additional observations from a re-analysis of the deposited data

Results flagged for a closer look

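The 12 members whose change differed between sh#87 and sh#16 in the direct test (edgeR's quasi-likelihood test, Benjamini-Hochberg adjustment over all genes) were all lower with sh#87. The log2 difference of sh#87 from sh#16 was -1.05 for SF3B6, -1.0 for SNRPE, -0.95 for SNRPG, -0.90 for HNRNPAB, -0.74 for SNRPB2 and -0.70 for HNRNPK. It was -0.68 for SRSF6, -0.67 for SRSF5, -0.60 for SNRPN, -0.49 for SNRPA, -0.48 for HNRNPF and -0.34 for SF3B4. Adjusted p-values lay between 2.23e-04 (HNRNPK) and 0.00888 (SF3B4), and in each case the 3 sh#87 libraries lay below the 3 sh#16 libraries. Among these 12, only SNRPG had log2 fold changes of opposite sign against NT, 0.36 and -0.59, of which the first did not pass. Over the 6 knockdown libraries, none of the 70 members had a highest or lowest library past Dixon's critical value for its gap to the nearest other library. These 6 pool both shRNAs, so a difference between the shRNAs widens the range and can hide a library that stands apart. The NT libraries are not part of that check.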

How the results depend on the processing

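Of 128 called values (44 members in 4 comparisons and 11 more with both shRNAs), 102 kept their direction and call under every alternative run, 26 lost the call under at least 1, and 3 of these changed sign, all after the correction for transcript length and GC content (SRSF3 with sh#87, -0.34 as reported and 0.08, and SRSF7 and PRPF39 with both shRNAs, both at 0.00). Of 59 uncalled values, 31 gained a call and 25 changed sign under at least 1 alternative. The cause of these changes was not tested.

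Leaving out single libraries gave 31 to 40 members lower and 6 to 9 higher for both shRNAs, 32 to 45 and 7 to 10 for sh#16, 40 to 50 and 6 to 10 for sh#87, and 8 to 26 and 0 to 3 between the shRNAs. Members past a log2 fold change of 1 with both shRNAs ranged from 17 to 23 lower and stayed at 2 higher. There were 0 to 2 differentially expressed members for both shRNAs, 0 to 1 for sh#16 and 1 to 4 for sh#87. The medians ranged from -0.69 to -0.47, from -0.59 to -0.41, from -0.78 to -0.59 and from -0.19 to -0.16 in the same order of comparisons.

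Upper-quartile normalization, which raised the median of all genes by 0.11 with both shRNAs, gave medians of -0.44, -0.37 and -0.58 with both, sh#16 and sh#87, and 2 differentially expressed members with sh#87. The correction for transcript length and GC content gave 11 members higher with sh#87, 3 higher between the shRNAs, 12 lower by at least 1 with both, and 1 and 2 differentially expressed members with both and with sh#87. A weight per group in limma-voom called 31 members lower and 5 higher between the shRNAs, and an adjusted p of at most 0.05 called 22 and 2. The share of all genes called under these settings is not given here. Between the shRNAs none of the 12 reported calls was higher, against 14.3% of calls after the correction, 13.9% with the weights and 10.3% without NT replicate 3. The labels share replicate numbers, but the numbers do not pair the libraries. A replicate block called 34 members lower and 6 higher with both shRNAs, 39 and 7 with sh#16, 43 and 7 with sh#87, and 8 and 0 between the shRNAs.

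Signs changed, mostly for values near 0, as follows. With upper-quartile normalization PRPF8 was at 0.07 with both shRNAs, sh#16 and sh#87, SNRPG at 0.07 and SRSF9 at 0.09 with both, SF3B4 at 0.05, SNRPA at 0.02 and U2AF1 at 0.02 with sh#16, and PRPF8 and SRSF2 at 0.01 between the shRNAs. After the correction for transcript length and GC content SRSF3 was at 0.11, 0.13 and 0.08 with both, sh#16 and sh#87, U2AF1 at -0.08, SNRPG at 0.02, SRSF10 at 0.09 and SNRPB at -0.19 with both, HNRNPA2B1 at 0.02 with sh#87, and HNRNPH1 at 0.02, SNRPD2 at 0.03, SRSF2 at 0.05 and SRSF8 at 0.00 between the shRNAs. With copies added, U2AF1 was at -0.30 with both and -0.27 with sh#87. SRSF9 was at 0.00 with both in limma-voom, without and with weights. With DESeq2, RLE or a mean of at least 10 counts, PRPF8 and SRSF2 were at 0.00 between the shRNAs. Without single libraries, with both shRNAs, U2AF1 ranged from -0.01 to 0.10, SNRPG from -0.13 to 0.08, SNRPB from -0.01 to 0.47, and SRSF9 from -0.20 to 0.14, and between the shRNAs ranges were PRPF8 from -0.06 to 0.02, SRSF2 from -0.01 to 0.01, SF3B1 from -0.01 to 0.01, TRA2A from -0.02 to 0.04, PRPF4 from 0.00 to 0.08, PRPF4B from -0.05 to 0.06, SF3B5 from -0.05 to 0.03 and SRSF8 from -0.14 to 0.04.

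Apart from HNRNPA1L2, the lowest count of a member in any library was 143 (PRPF40B). Precision was limited by 3 libraries in a group and by the spread between NT libraries (median coefficient of variation of the members 15.5%, against 3.25% with sh#16 and 5.16% with sh#87). Counts for each gene do not separate isoforms or near-identical copies.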

Other observations

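Some paralogs and partners within a complex had unlike values with both shRNAs. HNRNPL and HNRNPLL (-0.75 and 0.60), U2AF2 and U2AF1 (-1.50 and 0.04), SNRPN and SNRPB (-1.27 and 0.19) and SNRPD1 and SNRPD2 (-0.54 and 1.34) are log2 fold changes of this kind. These pairs were chosen after their values were seen, and the difference within a pair was not tested. Summed over a class, levels of the tri-snRNP class stood at 1518 ± 164, 1325 ± 14.4 and 1334 ± 32.3 CPM in NT, sh#16 and sh#87 (SD, n = 3 each), where the lowest NT library was at 1340 CPM.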
